A study of Rattus norvegicus with 56 samples.

Results

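The interferon-stimulated genes described here are 38 genes that cells switch on after interferon binds its receptors, chosen by name: a gene is a member if its symbol is on the list, which was drawn up with earlier results of these data known. Of the 38, 36 had a row among the 17337 genes of the count table, and all 36 were among the 11047 genes with enough reads to be tested. The expression of Xaf1 and Herc6 is not analysed here, and they enter only the promoter search below. Read counts of the members ran low in places: Oas2 had 1 to 58 reads per library and Zbp1 2 to 21.

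The livers came from Sprague-Dawley rats at postnatal day 180, taken 4 hours (ZT4, in the light phase) or 16 hours (ZT16, in the dark phase) after lights on. The 56 RNA libraries form 16 groups of sex, time and diet history. CON offspring and their dams had chow throughout (3 livers in each group). The HFhf dams received a Western diet and 25% fructose in drinking water from gestation day 11, and their offspring had it too (3 livers per sex at ZT4, 4 at ZT16). Both IUGR groups were born to dams restricted by 50% in calories from gestation day 10 until birth; IUGR-HFhf offspring were then raised on the HFhf regimen (3 livers in males at ZT4, 4 in each other group) and IUGR-RC offspring on regular chow (3 livers in females at ZT4, 4 in each other group). IUGR stands for growth restriction in the uterus. No label names a litter or a cage, so livers of a group could be litter-mates. The p-values below treat each liver as independent, which the labels do not settle. The IUGR-RC libraries carry a title number series of their own, and Rmrp, a non-coding RNA, was at 2.29 to 10.5 CPM (counts scaled to library size) in them against 743 to 4070 CPM in the 41 others; diet history and batch of IUGR-RC cannot be told apart.

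Type I and type III interferons act through receptor-bound Jak kinases and a transcription factor complex, with Stat2 and Irf9 among its subunits, that binds the interferon-stimulated response element (ISRE) in promoters; the response to interferon gamma runs through the gamma-activated site (GAS). Irf7 is both a target and an amplifier of this loop. In liver, hepatocytes, Kupffer cells and endothelial cells all respond, and a low basal level of these genes is found without infection. In bulk liver RNA, fewer cells of a type and less RNA per cell cannot be told apart.

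Promoters are shown because members that moved together at ZT16 can be set beside the 2 elements. RefSeq promoters (rat assembly GRCr8, 250 bases before the start to 50 bases from it) were found for 28 of the 38 listed members. The ISRE core, searched on both strands as GAAA, any 2 bases, GAAA, lay in 17 of these 28 (60.7%), against 3.92% of all 33469 promoters of the table. The GAS core, searched as TTCNNNGAA (its own reverse complement), lay in 8 of the 28 (28.6%) against 8.87% of all, and overlapping matches counted for each. Stretches before the start site follow, 5′ to 3′ on the gene's own strand, with matches in capitals; an ISRE core on the opposite strand reads as TTTC, any 2 bases, TTTC. Irf7 (chr1:205800043-205800132, minus strand), Ifit3 (chr1:241527242-241527325, plus strand) and Rsad2 (chr6:48788218-48788307, minus strand) stand for members lower in IUGR-HFhf at ZT16 and hold an ISRE core.
Irf7: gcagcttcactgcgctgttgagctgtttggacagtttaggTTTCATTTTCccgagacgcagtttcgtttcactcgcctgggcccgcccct
Ifit3: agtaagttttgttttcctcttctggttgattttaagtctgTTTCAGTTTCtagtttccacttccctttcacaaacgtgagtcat
Rsad2: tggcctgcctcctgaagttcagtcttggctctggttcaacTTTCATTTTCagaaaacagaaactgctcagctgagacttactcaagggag
Irf9 (chr15:33065697-33065785, plus strand) was lower too and holds only a GAS core in its promoter; so does Irf1 (chr10:38417753-38417841, plus strand), which was not called.
Irf9: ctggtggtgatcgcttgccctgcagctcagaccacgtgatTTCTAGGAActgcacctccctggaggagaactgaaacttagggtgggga
Irf1: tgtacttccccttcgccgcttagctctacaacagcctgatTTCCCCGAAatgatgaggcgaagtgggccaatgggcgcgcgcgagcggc
Bst2 (chr16:18255043-18255144, minus strand), higher in IUGR-HFhf, holds 2 overlapping ISRE cores, the first of which also overlaps a GAS core, and Igtp (chr10:42874893-42874993, plus strand), not called, holds 1 of each.
Bst2: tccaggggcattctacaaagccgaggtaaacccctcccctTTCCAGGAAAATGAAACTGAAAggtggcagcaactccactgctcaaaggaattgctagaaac
Igtp: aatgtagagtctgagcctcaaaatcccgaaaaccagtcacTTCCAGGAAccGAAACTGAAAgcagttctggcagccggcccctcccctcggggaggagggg
A match is a description of letters, and members lower and members not lower at ZT16 both hold the ISRE core. No match was found in these windows for Mx1, Oasl, Parp9 and Cmpk2, which were lower, or for Stat2, Ifi35, Trim25 and Herc6. In the RefSeq gene order Parp9, Dtx3l and Parp14 are neighbours on chromosome 11, Rsad2 and Cmpk2 on chromosome 6, and Ifit2 and Ifit3 on chromosome 1.

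At ZT16, many members were lower in IUGR-HFhf livers than in CON. As the mean of both sexes, 14 members were called lower, where 4.02% of all genes tested were, and 1 was called higher, where 5.08% of all genes were (edgeR's quasi-likelihood test, adjusted p under 0.05 over all genes). The median log2 fold change of the 36 members was -0.38 against 0.01 over all genes, and 30 of the 36 were below 0 against 48.7% of all genes. Irf7, Irf9, Mx1, Mx2, Oas2 and Usp18 were among the 14, lower by 1.46-fold (Irf9) to 3.03-fold (Usp18). None of the 4 nucleic acid sensors, and none of Ifi47, Igtp, Irgm, Gbp2 and Gbp5, was called.

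**Figure D1:**
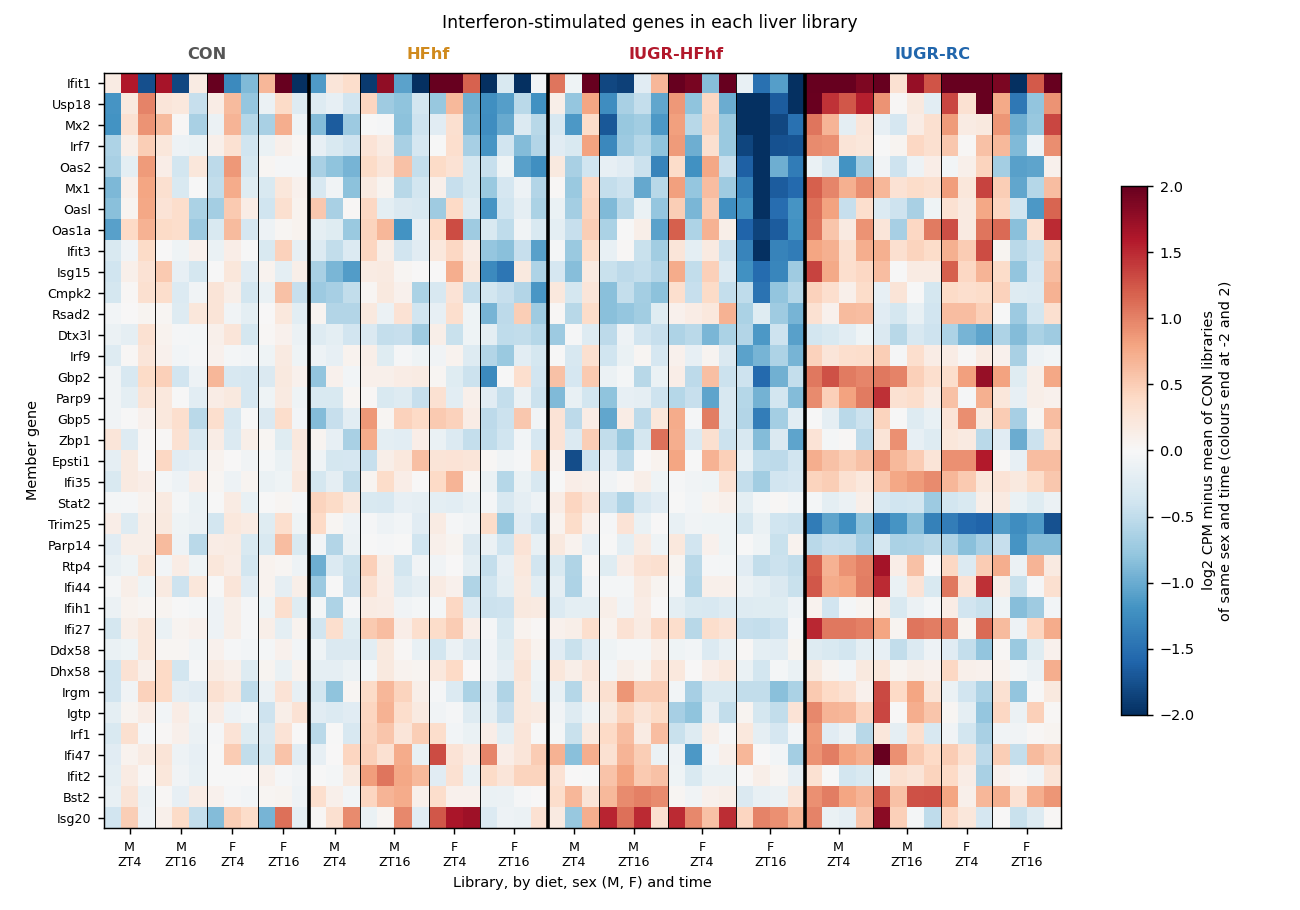
Heat map of the 36 members (rows) over the 56 libraries (columns, in the 16 groups), coloured by log2(CPM + 0.5) minus the mean of the CON livers of the same sex and time. The 4 female IUGR-HFhf livers at ZT16 have member medians of -0.44 to -0.61, and Male ZT4 IUGR-RC livers have medians of 0.28 to 0.82.

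Among the 4 regulators, 2 were called lower. Irf7, the transcription factor that drives late interferon production, measured 32.4, 25.7 and 25.1 CPM in male CON livers and 10.9, 16.5, 18.4 and 15.6 CPM in male IUGR-HFhf livers. In females, Irf7 was at 26, 30.7 and 29 CPM in CON, 12.3, 21.8, 15.4 and 18.8 CPM in HFhf and 7.58, 4.61, 8.17 and 8.28 CPM in IUGR-HFhf. Every IUGR-HFhf liver was below every CON liver of its sex, and in females the 3 diets did not overlap, HFhf lying in between; male HFhf livers, at 17.4 to 33.4 CPM, overlapped CON. The mean log2 fold change was -1.41 (SE 0.256, adjusted p = 0.000263). Irf9, the DNA-binding subunit of the complex that binds the ISRE, was at 26, 31.1 and 25.8 CPM in female CON livers and 12.8, 14.3, 17.7 and 14.3 CPM in female IUGR-HFhf livers, with no overlap. Male livers overlapped for Irf9, with 22, 19.9 and 20.3 CPM in CON and 15.7, 18.8, 21.3 and 16.3 CPM in IUGR-HFhf, and the mean log2 fold change was -0.55 (SE 0.108, adjusted p = 0.000562). Stat2, the partner of Irf9, had -0.23 on the log2 scale (adjusted p = 0.054), and Irf1, a factor induced by interferon gamma, 0.19 (adjusted p = 0.5).

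Of the 12 antiviral effectors, 8 were called lower and 1 higher. Ifit3, which binds viral RNA together with other Ifit proteins, measured 6.97, 12.2 and 7.67 CPM in female CON livers and 3.18, 1.79, 3.13 and 3 CPM in female IUGR-HFhf livers. The male groups were at 5.98, 5.53 and 6.3 CPM in CON and 5.27, 6.06, 4.21 and 3.47 CPM in IUGR-HFhf. Ifit3 was thus separated in females and overlapped in males, with a mean log2 fold change of -0.97 (SE 0.186, adjusted p = 0.000354). Ifit1, a cap-binding Ifit protein, varied too much between livers to be called: over all 56 libraries it ran from 0.158 to 34.3 CPM, and female CON livers at ZT16 alone held 9.72, 26.1 and 0.475 CPM. Its log2 fold change was -1.62 (SE 0.842, adjusted p = 0.249). Ifit2, next to Ifit3 on the chromosome, had 0.32 (adjusted p = 0.0708), the other way from Ifit3; reads of these similar genes may be shared between them, and the treatment of shared reads is not given in the sources used here.

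Mx1 and Mx2 encode dynamin-like GTPases that trap incoming viruses. Mx1 measured 10.2, 6.45 and 8.02 CPM in male CON livers against 5.66, 5.94, 3.71 and 5.35 CPM in male IUGR-HFhf livers. In females it measured 9.05, 13.4 and 12 CPM in CON and 4.13, 1.79, 3.26 and 3.52 CPM in IUGR-HFhf. CON and IUGR-HFhf did not overlap in either sex, and the mean log2 fold change was -1.23 (SE 0.283, adjusted p = 0.00323). Mx2 stood at 44.4, 28.8 and 18 CPM in male CON livers and 8.43, 16.6, 17.3 and 12.6 CPM in male IUGR-HFhf livers. Female Mx2 levels were 17.6, 46.3 and 26.3 CPM in CON, 11.4, 13.6, 23 and 18.7 CPM in HFhf, and 6.43, 6.1, 7.53 and 9.53 CPM in IUGR-HFhf. CON livers spread widely for Mx2, yet the lowest CON liver of each sex was above the highest IUGR-HFhf liver; the mean log2 fold change was -1.57 (SE 0.355, adjusted p = 0.00306). Mx1 and Mx2 are paralogs, so reads common to both are uncertain.

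Oas2, which makes the 2′-5′ oligoadenylate that activates RNase L, was at 2.82, 2.68 and 2.69 CPM in female CON livers and 0.541, 0.149, 1.15 and 0.725 CPM in female IUGR-HFhf livers. Male Oas2 levels overlapped, with 2.05, 1.32 and 2.23 CPM in CON and 1.58, 1.48, 1.24 and 0.434 CPM in IUGR-HFhf. The mean log2 fold change was -1.30 (SE 0.364, adjusted p = 0.017) on few reads. Its relatives Oas1a (-1.10, adjusted p = 0.0494) and Oasl (-1.17, adjusted p = 0.0251) were called lower as well. The Oas1a call was lost with no filter on low counts (adjusted p = 0.0695), with limma (adjusted p = 0.0735) and without any of 11 of the 14 libraries compared, all but replicate 3 of male CON, replicate 3 of male IUGR-HFhf and replicate 4 of female IUGR-HFhf (log2 fold changes of -1.17 to -1.01 in those 11). The Oasl call was lost without replicate 1 (-1.10, adjusted p = 0.0651) or 2 (-1.08, adjusted p = 0.0688) of male CON or replicate 2 of female CON (-1.08, adjusted p = 0.0617). Oas genes are similar copies, and reads shared between them are uncertain.

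Rsad2 (viperin) makes a chain-terminating nucleotide, and its neighbour Cmpk2 is a mitochondrial nucleotide kinase. Cmpk2 measured 4.57, 2.76 and 3.25 CPM in male CON livers against 1.71, 2.35, 1.98 and 1.73 CPM in male IUGR-HFhf livers. In female livers it measured 3.42, 5.97 and 2.61 CPM in CON and 2.5, 1.04, 1.98 and 2.38 CPM in IUGR-HFhf. Neither sex overlapped, although the female gap was narrow, and the mean log2 fold change of Cmpk2 was -0.89 (SE 0.22, adjusted p = 0.00628). Rsad2 measured 6.93, 5.53 and 7.92 CPM in male CON livers and 3.56, 3.71, 3.96 and 5.64 CPM in male IUGR-HFhf livers. Its female levels were 6.97, 8.17 and 5.93 CPM in CON and 4.33, 5.8, 4.08 and 3.42 CPM in IUGR-HFhf. Rsad2 overlapped by 1 liver in males and not in females, with a mean log2 fold change of -0.69 (SE 0.191, adjusted p = 0.016); without replicate 3 of male CON it was -0.63 and not called (adjusted p = 0.0505).

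Bst2 (tetherin, which holds budding virus on the cell surface) was the member called higher. In males it measured 77.8, 68.3 and 85.5 CPM in CON, 104, 124, 128 and 82.9 CPM in HFhf and 121, 148, 155 and 148 CPM in IUGR-HFhf. Female livers held 179, 181 and 163 CPM in CON and 143, 157, 161 and 206 CPM in IUGR-HFhf. The male groups CON and IUGR-HFhf were separate and the female groups overlapped, with a mean log2 fold change of 0.41 (SE 0.112, adjusted p = 0.0136); without replicate 2 of male CON it was 0.36 and not called (adjusted p = 0.0555). Isg20, an RNA exonuclease, had a larger but more variable mean difference of 0.99 (SE 0.348, adjusted p = 0.0634). It measured 2.52, 3.16 and 1.52 CPM in male CON livers and 7.64, 5.57, 7.43 and 3.04 CPM in male IUGR-HFhf livers. Female Isg20 levels were 1.21, 6.46 and 2.37 CPM in CON and 3.86, 5.95, 5.62 and 4.66 CPM in IUGR-HFhf, so the diets overlapped in both sexes.

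Of the 6 measured members of the Isg15, ubiquitin and ADP-ribose group, 4 were called lower. Isg15, the ubiquitin-like protein attached to others after interferon, was at 7.71, 4.6 and 3.96 CPM in male CON livers and 3.69, 3.46, 3.59 and 3.32 CPM in male IUGR-HFhf livers. Female Isg15 levels were 6.97, 5.73 and 7.2 CPM in CON and 2.57, 1.93, 2.36 and 3.83 CPM in IUGR-HFhf. The IUGR-HFhf livers were below CON in both sexes, and the mean log2 fold change was -0.95 (SE 0.254, adjusted p = 0.0117); without replicate 1 of male CON it was -0.79 and not called (adjusted p = 0.0701). Usp18 removes Isg15 and damps the type I receptor. It measured 14.2, 13.8 and 8.53 CPM in male CON livers and 4.74, 7.42, 8.42 and 5.49 CPM in male IUGR-HFhf livers. Female Usp18 was at 13.5, 19.4 and 12.3 CPM in CON, 6.02, 6.65, 10 and 6.13 CPM in HFhf and 2.57, 1.79, 4.34 and 2.8 CPM in IUGR-HFhf. Female livers of the 3 diets did not overlap, the male CON and IUGR-HFhf ranges nearly touched, and the mean log2 fold change was -1.60 (SE 0.376, adjusted p = 0.00424).

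Dtx3l, a ubiquitin ligase, and Parp9, its ADP-ribosylating partner, are encoded side by side. Dtx3l measured 60.3, 56.6 and 56.4 CPM in male CON livers, 47.3, 41.3, 42 and 35.2 CPM in HFhf and 40, 53.8, 43.9 and 41.6 CPM in IUGR-HFhf. In females it measured 63, 66 and 57.2 CPM in CON, 53.9, 43.5, 43.9 and 41.8 CPM in HFhf and 41.1, 27.8, 46.6 and 28.9 CPM in IUGR-HFhf. CON lay above both other diets in each sex. The mean log2 fold changes were -0.57 for Dtx3l (SE 0.111, adjusted p = 0.000519) and -0.52 for Parp9 (SE 0.156, adjusted p = 0.0256); the Parp9 call was lost without replicate 1 of male CON (-0.47, adjusted p = 0.0887), replicate 1 of male IUGR-HFhf (-0.46, adjusted p = 0.0597), replicate 2 of female CON (-0.48, adjusted p = 0.0721) or replicate 2 of female IUGR-HFhf (-0.48, adjusted p = 0.0559). Parp14 had -0.14 and Trim25, a ligase that activates the sensor encoded by Ddx58, -0.16, neither called.

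**Figure D2:**
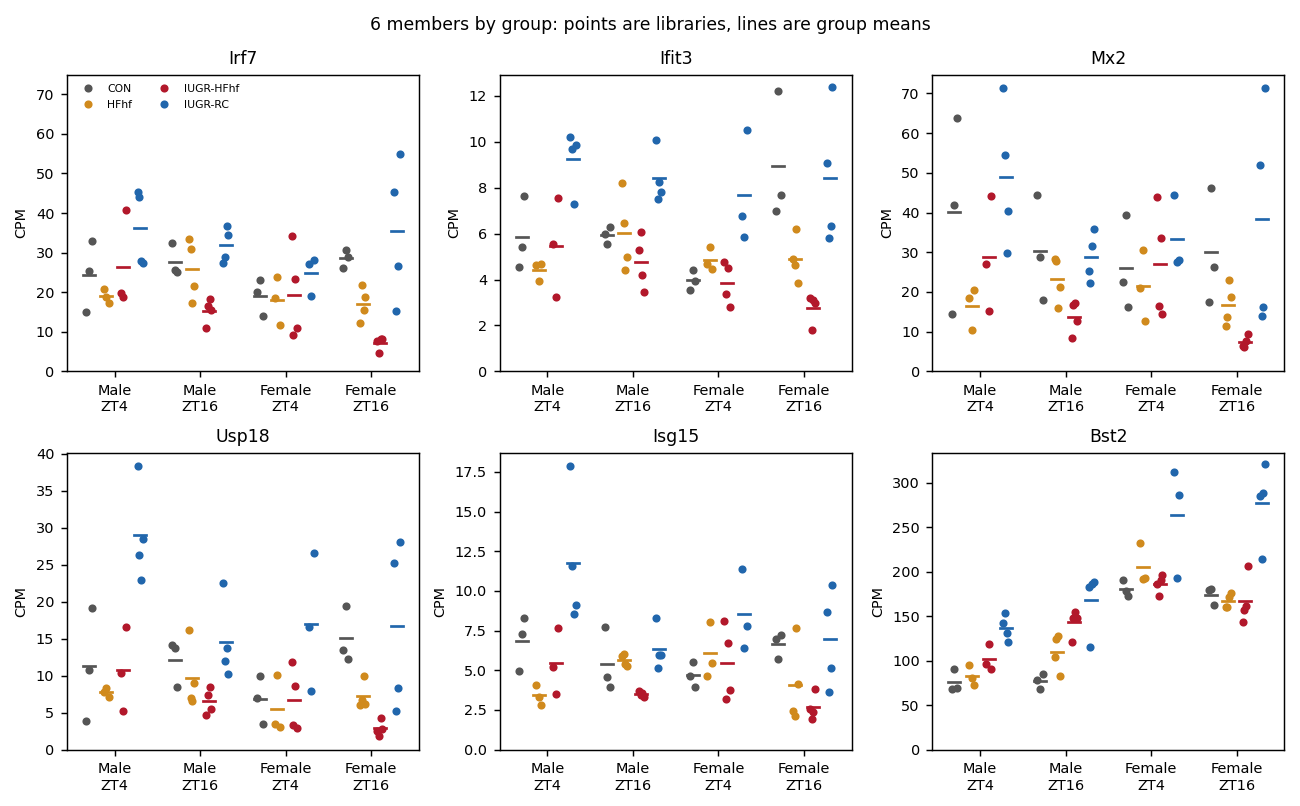
CPM of Irf7, Ifit3, Mx2, Usp18, Isg15 and Bst2 (vertical axes) in the 16 groups (horizontal axes); points are livers and lines are group means. At ZT16 female IUGR-HFhf livers hold the lowest Irf7 values of the plot (4.61 to 8.28 CPM), while Bst2 is higher in female than in male CON livers.

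The cytosolic RNA sensors Ddx58 (RIG-I), Ifih1 (MDA5) and Dhx58 (LGP2) and the Z-form nucleic acid sensor Zbp1 were not called, with log2 fold changes of -0.44 to -0.04. For Ddx58 the 95% interval ran from -0.23 to 0.15. The 5 interferon-inducible GTPases (Ifi47, Igtp, Irgm, Gbp2 and Gbp5) were not called either, at -0.53 to 0.20. Rtp4, Ifi27, Ifi35, Ifi44 and Epsti1 were between -0.33 and -0.05 and not called.

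By sex, the ZT16 calls differed in number. In females 10 members were called lower, where 1.06% of all genes were, and 0 higher, where 1.16% of all genes were. The member median was -0.65. The smallest p-values belonged to Ifit3 (log2 fold change -1.63, SE 0.258, adjusted p = 0.00016), Irf9 (-0.90, SE 0.15, adjusted p = 0.000287), Irf7 (-1.97, SE 0.364, adjusted p = 0.00154) and Dtx3l (-0.77, SE 0.157, adjusted p = 0.00324). In males 1 was called lower, Stat2 (-0.39, SE 0.111, adjusted p = 0.0332), where 1.48% of all genes were, and 2 higher, where 1.84% of all genes were: Bst2 (0.89, SE 0.161, adjusted p = 0.0011) and Ifit2 (0.63, SE 0.167, adjusted p = 0.0223). The male median was -0.20, and male Irf7 had a log2 fold change of -0.85 (adjusted p = 0.21). Male Stat2 levels were 195, 168 and 156 CPM in CON and 129, 113, 137 and 148 CPM in IUGR-HFhf, without overlap. The female count was 5 without replicate 2 of female CON, and 6 without replicate 3 of female CON or without replicate 1 or 2 of female IUGR-HFhf; the male count was 1 without replicate 2 of male CON or of male IUGR-HFhf.

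The difference between the sexes was tested directly. For the male minus the female IUGR-HFhf effect at ZT16, edgeR called 0 members higher (0.0181% of all genes) and 0 lower (0.00905% of all genes). At an unadjusted p under 0.05 there were 8 members, against 5.04% of all genes, and DESeq2 called 1. The median difference over the members was 0.56. The smallest p was that of Bst2, with 0.96 (SE 0.222, adjusted p = 0.0848), and Ifit3 had 1.31 (adjusted p = 0.284). The number of calls in each sex therefore does not show a difference between the sexes for any one member.

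**Figure D3:**
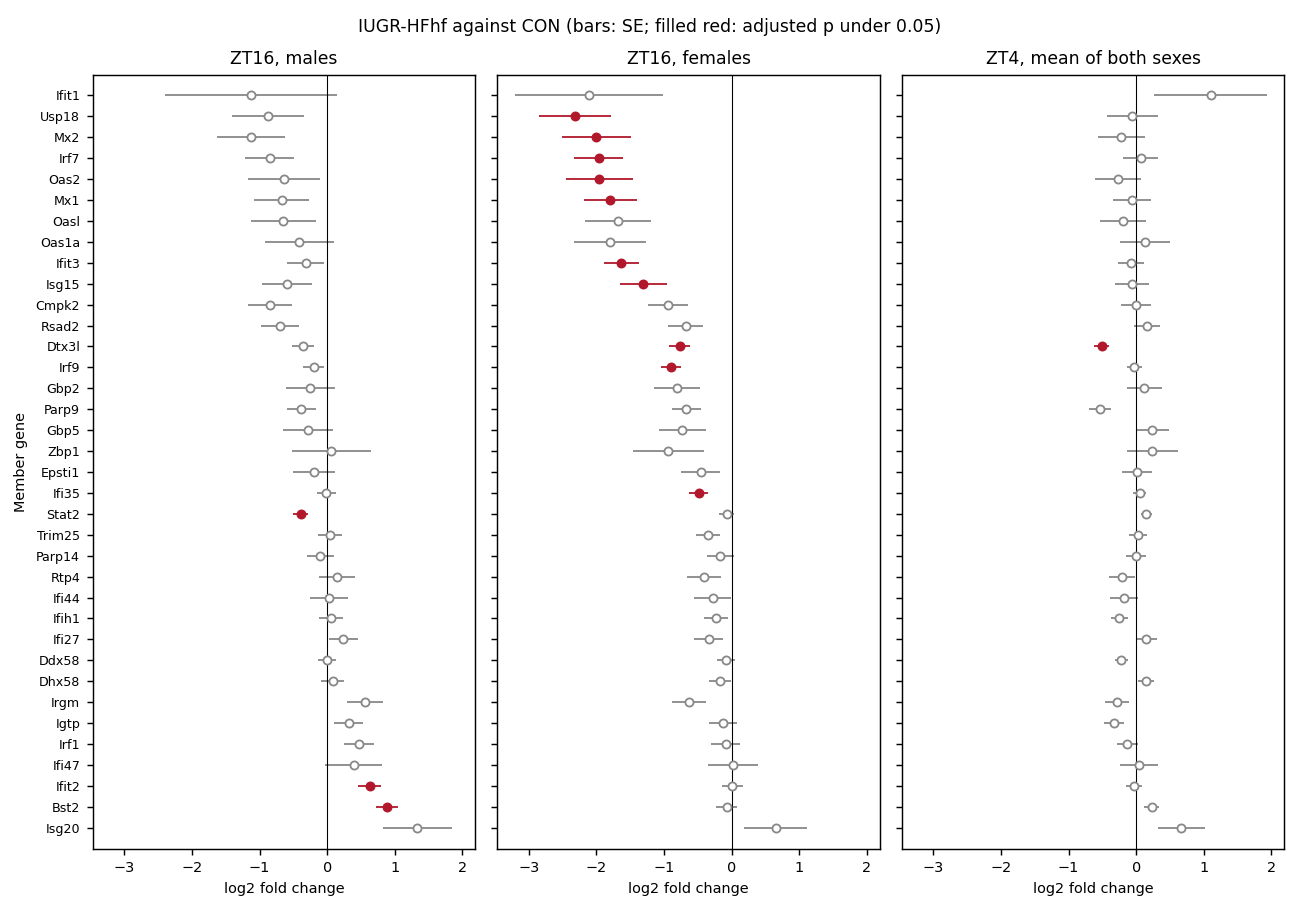
Log2 fold changes of IUGR-HFhf over CON (horizontal axes) for the 36 members (vertical axis), in males at ZT16, females at ZT16 and both sexes at ZT4. Bars are the SE, not 95% intervals, and filled red points had an adjusted p under 0.05. The female ZT16 panel lies mostly to the left of 0, with Irf7 at -1.97, while the ZT4 panel is centred near 0 (median -0.02).

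Across all 16 groups, 17 of the 36 members (47.2%) had their lowest group mean in female IUGR-HFhf livers at ZT16, against 4.75% of all genes tested. Set against CON of the same sex and time, the 4 livers of that group had member medians of -0.44, -0.61, -0.47 and -0.53. In them 30, 33, 33 and 31 of 36 members were below the CON mean, against 47.1%, 49.6%, 48.8% and 49.8% of all genes. Female HFhf livers at ZT16 had medians of -0.33, -0.39, -0.04 and -0.31, with 31, 34, 20 and 27 members below. Male IUGR-HFhf livers at ZT16 had medians of -0.20, -0.05, -0.08 and -0.09, with 27, 22, 19 and 19 below. Single CON livers varied widely around their own group mean. The number below ran from 4 (replicate 1 of males at ZT16) to 33 (replicate 1 of males at ZT4). Replicate 2 of female IUGR-HFhf at ZT16 held the lowest value of all 56 libraries for 15 of the 36 members. The same count was not made for all genes, and this library had the fewest reads of its group (7.12 M). Without this library, 13 members instead of 15 were called at ZT16 in both sexes together.

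Summed levels of cell type markers differed between some of the ZT16 groups. Of 12 listed markers of Kupffer cells and macrophages, 11 were tested (Timd4 had no row), none was at 0 throughout, and their summed level was 669 to 829 CPM in female CON, 539 to 718 CPM in female HFhf and 372 to 590 CPM in female IUGR-HFhf livers. In males the sum was 550 to 664 CPM in CON and 499 to 547 CPM in IUGR-HFhf, so CON and IUGR-HFhf did not overlap in either sex. Of these 11, 1 was called lower at ZT16, Marco, and DESeq2 called 2. Of all genes tested, edgeR called 4.02% lower and 5.08% higher in this comparison of both sexes together. At an unadjusted p under 0.05, 9 of the 11 were lower, against 10.9% of all genes; 10 were below 0, and the marker median was -0.37 beside the member median of -0.38. Dendritic cell markers (4 of 6 tested, Siglech without a row) summed to 15.3 to 20.8 CPM in male CON and 12.3 to 14.3 CPM in male IUGR-HFhf livers, with no overlap, and to 10.5 to 14.4 and 10.2 to 12.4 CPM in the same female groups, which overlapped; 1 (Flt3) was called lower. T and NK cell markers (7 of 12 tested) summed to 31.1 to 38.5 CPM in female CON and 24.8 to 36.5 CPM in female IUGR-HFhf livers, and to 25.2 to 34.5 and 25.5 to 29.1 CPM in the same male groups, overlapping in both sexes, with 1 (Zap70) called higher. In males, endothelial markers (402 to 443 CPM in CON, 359 to 391 CPM in IUGR-HFhf) and stellate cell markers (263 to 287 CPM and 186 to 253 CPM) were lower without overlap, and hepatocyte markers (137000 to 152000 CPM and 172000 to 194000 CPM) higher without overlap. B cell and plasma cell markers (1 of 7 tested, Cd79a and Jchain without a row) rested on few reads. They summed to 1.22 to 1.82 CPM in female CON and 2.08 to 2.77 CPM in female IUGR-HFhf livers. In the same male groups they summed to 1.22 to 2.2 and 1.19 to 4.34 CPM, which overlapped. The endothelial, stellate and hepatocyte sums overlapped in females, and no endothelial or stellate marker was called in both sexes together. The part of these cells in the result was not tested. The labelled tissue was liver by its markers: the 8 hepatocyte markers summed to 137000 to 427000 CPM over the 56 libraries.

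At ZT4 the same comparison gave few calls. As the mean of both sexes, 1 member was called lower, where 1.12% of all genes were, and 0 higher, where 1.3% were: Dtx3l, with -0.51 (SE 0.115, adjusted p = 0.00889). The member median was -0.02. In females at ZT4, Dtx3l was again the 1 called lower (0.362% of all genes) and 0 were called higher (0.317%); it measured 79.6, 87.9 and 57.9 CPM in CON and 48.1, 51, 39.2 and 47.6 CPM in IUGR-HFhf, without overlap (-0.69, SE 0.155, adjusted p = 0.0168). This female call was lost without replicate 1 or 2 of CON or replicate 3 of IUGR-HFhf. In males at ZT4, 0 were called higher (0.217% of all genes) or lower (0.244%) by edgeR, 3 passed an unadjusted p under 0.05 against 12.3% of all genes, and DESeq2 called 0.

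The change of effect between times was called for 1 member. For the ZT16 minus the ZT4 effect of IUGR-HFhf, Irf7 was called lower, where 0.335% of all genes were, and 0 members were called higher, where 0.308% were. Its difference of effects was -1.47 (SE 0.365, adjusted p = 0.0439). Irf7 at ZT4 measured 14.9, 25.4 and 33 CPM in male CON and 19.7, 18.7 and 40.7 CPM in male IUGR-HFhf livers. In females at ZT4 it measured 20, 23.1 and 14 CPM in CON and 34.1, 9.19, 23.4 and 11 CPM in IUGR-HFhf. At ZT4 the diets thus overlapped in both sexes, whereas at ZT16 they did not. The Irf7 call was lost when any of 18 of the 27 libraries compared was left out, and at an unadjusted p under 0.05 there were 17 members, 15 of them lower, against 12.9% of all genes.

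IUGR-HFhf and HFhf offspring share the regimen after birth and differ in what their dams received in gestation. At ZT16, edgeR called 0 members higher (0.00905% of all genes) and 0 lower (0% of all genes) in IUGR-HFhf against HFhf. There were 16 at an unadjusted p under 0.05, 15 of them lower, against 8.53% of all genes, the member median was -0.26, DESeq2 called 1, and fitting the compared groups alone gave 3 calls. Irf7 had -0.98 with a 95% interval of -1.48 to -0.49 (adjusted p = 0.14), and Mx1 had -0.92 (adjusted p = 0.237). Averaged over the 4 combinations of sex and time, 0 were called higher (0.0362% of all genes) or lower (0.0181%), 4 passed an unadjusted p under 0.05 against 7.55%, and DESeq2 called 0.

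HFhf alone, against CON at ZT16, had 1 member called higher, where 2.48% of all genes were, and 1 lower, where 1.77% were. Ifit2 rose by 0.62 on the log2 scale (SE 0.115, adjusted p = 0.000562), from 22, 17.8 and 16.8 CPM to 33.9, 39.8, 32.4 and 29.7 CPM in males and from 28.1, 25.7 and 25.2 CPM to 34.3, 31.1, 35.9 and 36 CPM in females, with no overlap. Dtx3l changed by -0.46 (SE 0.111, adjusted p = 0.00962). At ZT4, edgeR called 0 higher (1.38% of all genes) or lower (1.58%), 4 passed an unadjusted p under 0.05 against 15.1%, and DESeq2 called 0. As the mean of the 4 strata, Ifit2 (0.32, adjusted p = 0.00924) was the 1 called higher (4.31% of all genes) and Dtx3l (-0.34, adjusted p = 0.00517) the 1 called lower (3.63%). The same mean for IUGR-HFhf against CON, which uses the same CON livers, had 9 called lower (4.68% of all genes) and 2 higher (5.8%). Those with the smallest p-values were Dtx3l (-0.54, adjusted p = 5.80e-06), Parp9 (-0.53, adjusted p = 0.0011), Bst2 (0.32, adjusted p = 0.00522) and Ifit3 (-0.52, adjusted p = 0.00725), and Isg20 was the other one higher (0.83, adjusted p = 0.0219).

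Changes with time of day were counted in each diet. From ZT4 to ZT16 in CON, 6 members fell, where 6.91% of all genes did, and 2 rose, where 6.25% did. Stat2 rose by 0.53 (SE 0.0843, adjusted p = 8.98e-06), while Ifit2 changed by -0.74 (SE 0.122, adjusted p = 1.74e-05), Ddx58 by -0.60 (SE 0.1, adjusted p = 1.95e-05) and Igtp by -0.91 (SE 0.158, adjusted p = 4.31e-05). In HFhf 6 fell (4.77% of all genes) and 1 rose (5.44%), led by Ddx58 (-0.37, adjusted p = 0.00587) and Dtx3l (-0.44, adjusted p = 0.00675). In IUGR-RC 7 fell (10.6% of all genes) and 1 rose (9.4%), led by Ifit2 (-0.56, adjusted p = 0.000186) and Stat2 (0.39, adjusted p = 0.000257).

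In IUGR-HFhf 18 members fell from ZT4 to ZT16, where 12.3% of all genes did, and 0 rose, where 13.4% did. The median was -0.37 against -0.01 over all genes, and 31 of 36 were below 0. The 18 comprised 2 regulators, 6 effectors, 3 of the Isg15 group, 2 sensors, 4 GTPases and 1 other. Gbp5, a guanylate-binding GTPase, measured 8.49, 4.65 and 7.68 CPM in males at ZT4 and 1.58, 4.21, 2.48 and 4.48 CPM at ZT16. In females Gbp5 measured 7.55, 4.23, 9.21 and 3.34 CPM at ZT4 and 2.71, 1.34, 2.49 and 3.62 CPM at ZT16. The times were separate in males and overlapped by 1 liver in females, and the log2 fold change was -1.18 (SE 0.238, adjusted p = 0.000279). Irf7 (-1.09, SE 0.251, adjusted p = 0.00132), Mx2 (-1.46, SE 0.346, adjusted p = 0.0018) and Ddx58 (-0.42, adjusted p = 0.00057) had the next smallest p-values. In CON, Irf7 and Mx2 were not called between times; the difference between diets in this change is the test of ZT16 and ZT4 effects given above, in which Irf7 alone was called.

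**Figure D4:**
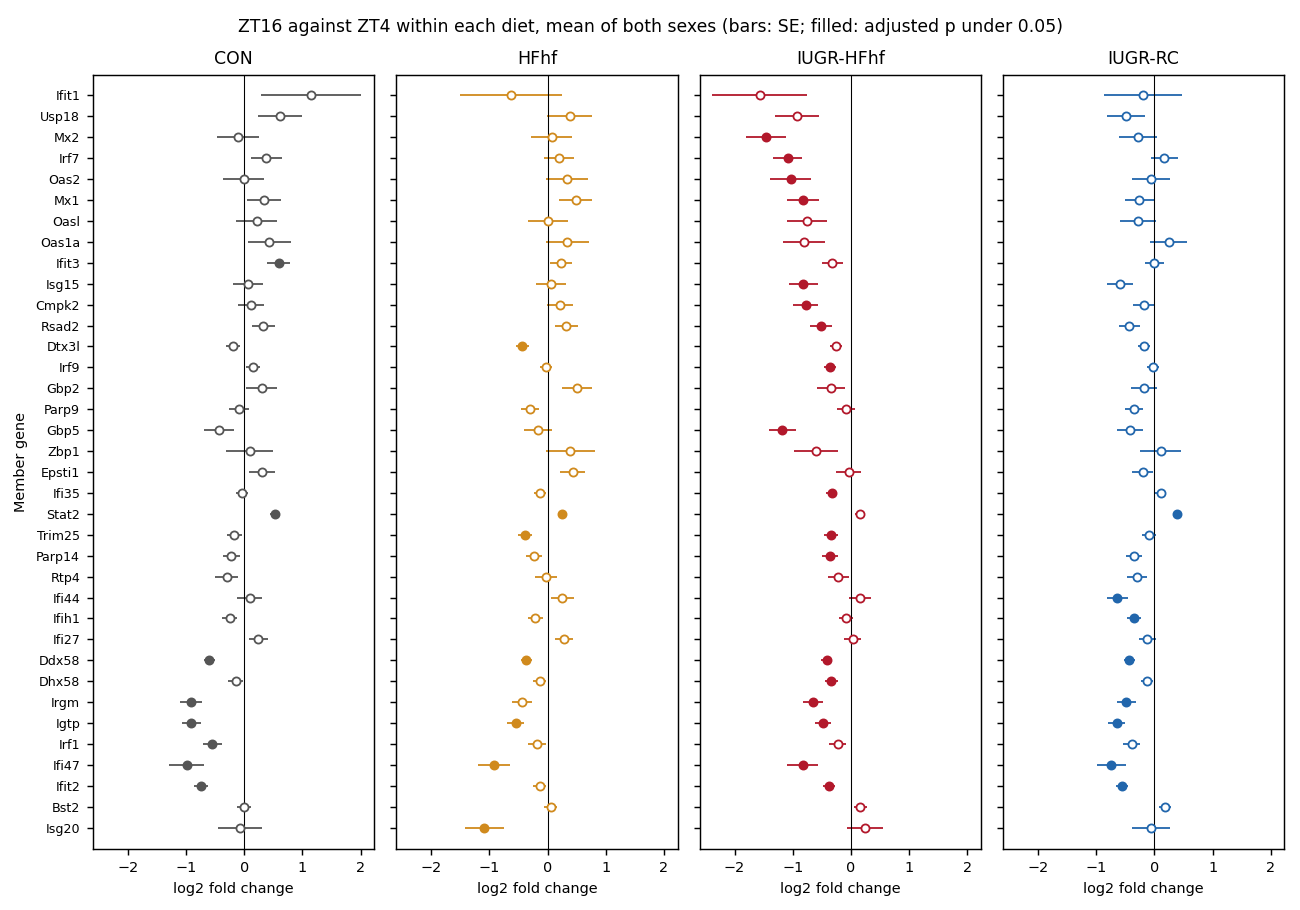
Log2 fold changes of ZT16 over ZT4 (horizontal axes) for the 36 members (vertical axis) in CON, HFhf, IUGR-HFhf and IUGR-RC, as the mean of both sexes. Each point is a member, bars are the SE, and filled points had an adjusted p under 0.05. IUGR-HFhf members run from -1.57 to 0.24 with a median of -0.37, and CON members from -0.99 to 1.15 with a median of -0.01. HFhf members run from -1.09 to 0.50 and IUGR-RC members from -0.74 to 0.39.

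A few members differed strongly in level between the sexes. In CON livers, 7 members were lower in males, where 8.36% of all genes were, and 1 was higher, where 7.85% were. Ifi47, an interferon-gamma-inducible GTPase, measured 9.11, 11.2 and 12 CPM in males at ZT4 and 11.8, 9.08 and 8.63 CPM at ZT16. Female CON livers held 123, 177 and 87.7 CPM at ZT4 and 27.4, 52.2 and 30 CPM at ZT16. Every female liver was above every male liver, and females at ZT4 were above females at ZT16; the log2 difference of males from females was -2.74 (SE 0.307, adjusted p = 3.65e-09). Bst2 was also lower in males (-1.21, SE 0.12, adjusted p = 3.77e-11), as was Ifit2 (-0.56, adjusted p = 0.000553), whereas Ddx58 was higher in males (0.50, adjusted p = 0.000171). Read depth differed too, at 6.43 to 7.1 M in male and 16.2 to 18.7 M in female CON libraries at ZT4. At ZT16 it was 5.55 to 9.05 M in males and 8.03 to 13.6 M in females. The part of depth was not tested.

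IUGR-RC livers differed from CON for many members in both directions, but so did the whole transcriptome. As the mean of 4 strata, 16 members were called higher, where 33% of all genes were, and 5 lower, where 29.9% were; the member median was 0.24 against 0.03 over all genes. Trim25 was at 22.2 to 47.6 CPM in the 15 IUGR-RC livers and at 63.9 to 101 CPM in the 12 CON livers, without overlap (log2 fold change -1.30, SE 0.0909, adjusted p = 7.98e-17). Bst2 averaged 137 ± 14.3 CPM (SD, n = 4) in male IUGR-RC livers at ZT4 against 76 ± 12.5 CPM (SD, n = 3) in CON (0.80 over the 4 strata, SE 0.0806, adjusted p = 6.38e-12). Ifi27, a small mitochondrial protein (0.80, SE 0.111, adjusted p = 2.65e-08), and Ifi35, a signalling modulator (0.50, SE 0.0698, adjusted p = 3.02e-08), had the next smallest p-values among those higher. All 5 measured members of the last group (Rtp4, Ifi27, Ifi35, Ifi44 and Epsti1) were higher, and so were 3 of 5 GTPases and 5 of 12 effectors, while Stat2, Ddx58, Parp14, Dtx3l and Trim25 were lower. Dtx3l and Parp9, neighbours that both fell in IUGR-HFhf, went opposite ways in IUGR-RC, at -0.56 and 0.50.

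Of the 36 members, 17 (47.2%) had their highest group mean in male IUGR-RC livers at ZT4, against 19.1% of all genes tested. Summed Kupffer cell and macrophage markers were 714 to 1460 CPM in IUGR-RC livers and 550 to 829 CPM in CON livers. Of the 11, 8 were called higher, where 33% of all genes were, and the marker median was 0.66. The part of these markers in the member result was not tested, and batch and diet history of IUGR-RC cannot be told apart. Within IUGR-RC, replicate 2 of females at ZT16 stood apart, with a member median of -0.59 relative to CON against 0.25, -0.11 and 0.41 in the other 3 livers; without it 23 members instead of 21 were called. Beyond this, 4 libraries were doubtful for other reasons: high Acta1, a skeletal muscle gene, in 3 (20.3, 125 and 1310 CPM against at most 2.73 CPM elsewhere), and clock gene levels near those of the other time in 1 female ZT4 IUGR-RC liver. Without these 4, 22 members were called in IUGR-RC and 17 in IUGR-HFhf at ZT16.

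Members varied together from liver to liver within groups. The deviation of log2(CPM + 0.5) from the group mean was compared with that of Irf7 over the 56 libraries, for 35 members. Mx2 was the most alike (Pearson's r = 0.83, Spearman's rho = 0.82, adjusted permutation p = 7.00e-05), with r = 0.82 without the 2 libraries farthest for Irf7, 0.90 in the 15 IUGR-RC libraries and 0.80 in the other 41. Usp18 (r = 0.81, rho = 0.77), Oas1a (r = 0.80, rho = 0.80), Mx1 (r = 0.78, rho = 0.70) and Oasl (r = 0.73, rho = 0.77) followed, and each kept r of at least 0.73 without those libraries. The median r of the 35 was 0.40 and 22 passed an adjusted p under 0.05, against a median of -0.01 over all 11046 other genes; 8 genes (0.0724%) were over 0.7, the 5 above with Ly6e, Lgals3bp and Oas1b. Dtx3l (r = 0.14), Parp9 (0.10), Stat2 (0.06), Isg20 (0.06) and Trim25 (-0.23) did not follow Irf7. Ifit1, chosen after its values were seen, had r = 0.86 within IUGR-RC and 0.21 in the other libraries. All of these values share library depth and scaling.

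**Figure D5:**
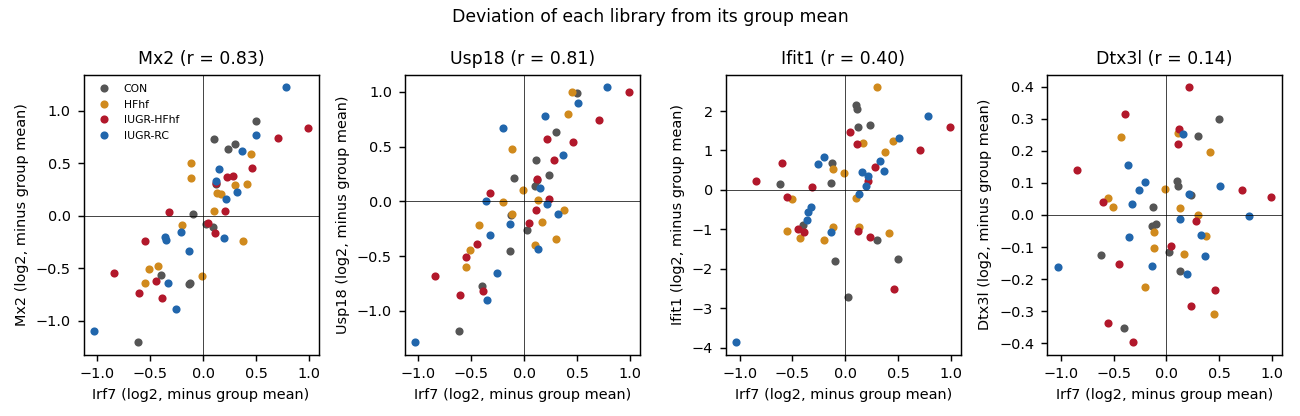
Deviation from the group mean, in log2(CPM + 0.5), of Mx2, Usp18, Ifit1 and Dtx3l (vertical axes) against that of Irf7 (horizontal axes), each point 1 of the 56 libraries. Mx2 and Usp18 rise with Irf7 (r of 0.83 and 0.81), Dtx3l does not (r of 0.14).

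A further list held genes that make, receive or pass on the interferon signal. Of 35 listed signalling genes, 26 were tested, and at ZT16 in IUGR-HFhf against CON 2 were called lower (4.02% of all genes) and 0 higher (5.08%), with a median of -0.10 against 0.01 over all genes: Jak2, the kinase of the interferon gamma receptor (-0.40, SE 0.0964, adjusted p = 0.00452), and Irf8, a factor of macrophages and dendritic cells (-0.58, SE 0.144, adjusted p = 0.00581). Of the listed ligands, Ifnb1 and Ifna1 had 0 reads and Ifng 4 reads over all 56 libraries, while Ifnk, a type I interferon, had 316 reads, at most 17 in a library, and was tested. Ifnk was not called at ZT16 in IUGR-HFhf; it was called lower in IUGR-RC against CON (-2.22, SE 0.403, adjusted p = 4.98e-06), where batch and diet history cannot be told apart. Of 59 further interferon-stimulated genes, 44 were tested; 8 were called lower and 0 higher, beside the same 4.02% and 5.08% of all genes, with a median of -0.14. They were led by Oas3 (-1.72, SE 0.325, adjusted p = 0.000318), the RNA-editing enzyme gene Adar (-0.49, SE 0.0978, adjusted p = 0.000729), Oasl2 (-0.96, adjusted p = 0.00119) and Slfn3 (-1.29, adjusted p = 0.00119). In IUGR-RC the 2 lists held 5 higher and 13 lower, and 18 higher and 12 lower, beside the background of 33% and 29.9%.

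In the authors' deposited table for female ZT16 IUGR-HFhf against CON, 12 members had an adjusted p under 0.05 and were lower, where 1.42% of all genes with an adjusted p were, and 0 were higher, where 1.66% were. The 2 beyond the 10 named by edgeR's count were Oas1a (-1.82, adjusted p = 0.0157) and Oasl (-1.72, adjusted p = 0.0153) in the authors' deposited table. For males at ZT16 the authors' deposited table had 2 higher (2.27% of all genes) and 1 lower (1.78%). For females at ZT4 the authors' deposited table had 0 higher (0.642%) and 1 lower (0.583%), and for males at ZT4 it had 0 higher (0.541%) and 0 lower (0.49%).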

How the data were processed

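Liver RNA of 56 rats was sequenced on an Illumina HiSeq after removal of ribosomal RNA and stranded library preparation, per the labels' protocols; the molecule label reads polyA RNA and the source label mouse, while the organism label reads rat. Tools in the submitters' processing notes are STAR, featureCounts (Subread), FastQC and DESeq2, with build rn6 and no versions; the handling of reads shared between similar genes is not given in the sources used here. The authors deposited raw read counts per gene symbol. They also deposited tables of each diet against CON, which hold, per the file headers, a mean signal, a log2 fold change, its standard error, a test score and p-values; these were used only where named. Libraries held 5.55 to 19.1 M reads (median 9.17 M).

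Groups came from the labels for sex, time and diet. All libraries entered 1 fit in edgeR 4.0.16 (R 4.3.3; filterByExpr, TMM, robust quasi-likelihood F tests, 40 residual degrees of freedom); two-sided p-values were adjusted by Benjamini-Hochberg over 11047 genes in each comparison. CPM uses TMM-scaled totals. Standard errors are on the log2 scale. The members and lists were chosen with earlier results of these data known. Full values are given for the 12 members with the smallest p at ZT16 and up to 4 per other comparison; Ifit1, Isg20 and other uncalled members given by value were picked after values were seen. Covariation used 100000 permutations within groups, where 1.00e-05 is the smallest p they can give. Alternatives were DESeq2 1.42.0, its size factors, no filter, compared groups alone, limma 3.58.1 with sample weights, leaving out the 4 doubtful libraries, and leaving out each library. The fit was tested on simulated data. No pair of libraries of a group matched within counting error (lowest chi-square per degree of freedom 8.87). Promoters are RefSeq's, assembly GRCr8; no rn6 sequence was used here.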

Additional observations from a re-analysis of the deposited data

Results flagged for a closer look

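For the 15 members called at ZT16, 120 sets of 4 livers (1 member in 1 group) were examined, and 5 held a liver far from the remaining 3; chance gives about 1 in 20. Ifit3 was lowest, at 1.79 CPM, in replicate 2 of female IUGR-HFhf at ZT16, where the others were at 3 to 3.18 CPM. Usp18 was highest, at 10 CPM, in replicate 3 of female HFhf at ZT16. Bst2 was lowest, at 115 CPM, in replicate 2 of male IUGR-RC at ZT16. Oasl was highest, at 7.85 CPM, in replicate 1 of male HFhf at ZT16, and Parp9, at 332 CPM, in replicate 1 of male IUGR-RC at ZT16. The effect of IUGR-HFhf on Irf7 differed between times, being lower at ZT16 than at ZT4 by a log2 difference of -1.47 (edgeR, adjusted p = 0.0439).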

How the results depend on the processing

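At ZT16 in both sexes together, the count of 15 called members was 14 to 18 over the 6 other settings and 11 to 16 with a library left out, and no member reversed under any setting run. With the compared groups fitted alone, male livers at ZT16 had 6 calls and female livers at ZT4 had 0; there were 3 for the change of effect between times, 1 for males minus females, 3 against HFhf at ZT16, and 4 between times in IUGR-RC. DESeq2 called 2 at ZT4, 2 for the change of effect, 1 for males minus females and 1 against HFhf at ZT16. Limma called 2 at ZT4, 5 for the change of effect, 1 for males minus females and 1 in HFhf at ZT4. With no filter the change of effect had 0. Without the 4 doubtful libraries, males minus females had 1 and the comparison with HFhf at ZT16 had 1. The causes were not tested. With 1 library left out, counts at ZT16 ran from 1 to 3 in males and 5 to 10 in females; at ZT4 they ran from 1 to 2 for both sexes (2 without replicate 3 of female CON), 0 to 0 for males and 0 to 1 for females. They ran from 8 to 14 over the 4 strata, 0 to 1 for the change of effect, 0 to 1 for males minus females (1 without replicate 4 of female IUGR-HFhf), 0 to 1 against HFhf at ZT16 (1 without replicate 3 of male HFhf) and 0 to 0 over the strata. For HFhf they ran from 2 to 2 at ZT16, 0 to 0 at ZT4 and 2 to 4 over the strata (4 without replicate 1 of male CON at ZT4), and for IUGR-RC from 20 to 23. Between times they ran from 6 to 8 in CON, 4 to 7 in HFhf (4 without replicate 3 of males at ZT4, replicate 4 of males at ZT16 or replicate 1 of females at ZT4), 13 to 19 in IUGR-HFhf, and 5 to 13 in IUGR-RC (13 without replicate 1 of males at ZT16, 5 without replicate 2 of males at ZT16, replicate 1 of females at ZT4 or replicate 2 of females at ZT16). Between sexes they ran from 7 to 8. Other scalings moved the median of all genes by at most 0.015 on the log2 scale. Members with few reads, such as Oas2 and Zbp1, are limited by depth. No paired analysis was possible because the labels share no replicate numbers across groups.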
